A study of Mus musculus with 6 samples.

Results

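This account covers the pair of liver libraries labelled OGT-KO and OGT control at 28 days after surgery, which are 2 of the 6 libraries of the series. OGT is the only enzyme known to place O-GlcNAc, a sugar mark, on proteins inside the cell. The pair was taken by its labels, with no measured value used in the choice, and genes entered when either library reached 1 CPM (the count scaled to a common library size), which 11803 of the 12027 genes of the count table did. The knockout livers came from male C57BL/6 mice of genotype OGT-/y and the control livers from OGTfl/y males. All were 8 weeks old per the labels and all had undergone partial hepatectomy, labelled PHX, in which part of the liver is removed and the rest grows back. The series describes the deletion as specific to hepatocytes, while the Cre driver, its timing and the genotype of the controls at that driver are not given in the sources used here. Each library held RNA from pieces of whole liver of 3 mice, pooled in equal amounts. The other 4 libraries came from OGA-/- mice, labelled OGA-KO, which lack the enzyme that takes the sugar off, and from OGAfl/fl controls, labelled OGA control. These had the same strain, sex, age and surgery, with 1 pool per group at 14 and 28 days, and serve here as a reference range.

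O-GlcNAc is a single sugar placed on serine and threonine residues of nuclear, cytoplasmic and mitochondrial proteins, among them transcription factors, RNA polymerase and signalling kinases. OGT adds it from UDP-GlcNAc, the end product of the hexosamine pathway, which draws on glucose, glutamine, acetyl-CoA and nucleotides, and OGA removes it. The gene for OGT is X-linked, so that a male carries a single copy. After partial hepatectomy the mature hepatocytes divide, and the liver normally regains its mass and returns to its quiescent, metabolic state.

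With 1 pooled library a side, no replicate error exists for the pair, so no p-value is given. A gene is called higher or lower when its ratio of OGT-KO to control is at least 2-fold, and the range after a log2 ratio is its 95% counting interval, which covers counting error only. Of the 11803 genes measured, 3320 (28.1%) met this rule, 1937 higher (16.4%) and 1383 lower (11.7%), and at 4-fold there were 756 higher (6.41%) and 410 lower (3.47%). Scaling moved this balance: by library totals, with no correction for composition, 2832 genes were higher and 832 lower, since most ratios moved up by about 0.37 on the log2 scale. Shares of higher genes among those called were 58.3% and 77.3% under these scalings. A move of that size cannot change the sign of a gene called at 2-fold, so unchanged signs are no check of the scaling. The same 2-fold rule gave 2.57% of genes for the OGA-KO pair at 28 days, 0.839% for that pair at 14 days, and 10.4% between the OGT and OGA controls at 28 days. The last value sets the difference between control pools of the 2 lines beside that of the OGT pair. In 1426 genes (12.1%) the OGT-KO library was at least 2-fold above all 5 other libraries and in 1044 (8.85%) at least 2-fold below them, while 511 of the higher and 339 of the lower genes did not stand outside the OGA range in this way. Fits over all 6 libraries, whose spread comes from the OGA libraries alone and which set no minimum fold, called 26.1% of genes higher and 26.6% lower with edgeR, and 10% and 14.0% with DESeq2. Near the 2-fold bound, Igf1, the growth hormone target, was just inside at 169 and 338 CPM (-1.0) and Klf15 just outside at 91.9 and 183 CPM (-0.99). The count table held 20433100 counts in OGT-KO and 21852873 in control, and 20433100 to 29327722 over the 6 libraries. Summed over the OGA libraries no row was under 28 counts, while 56 rows were at 0 in both OGT libraries, so a gene expressed mainly in OGT-KO had less chance of a row.

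**Figure D1:**
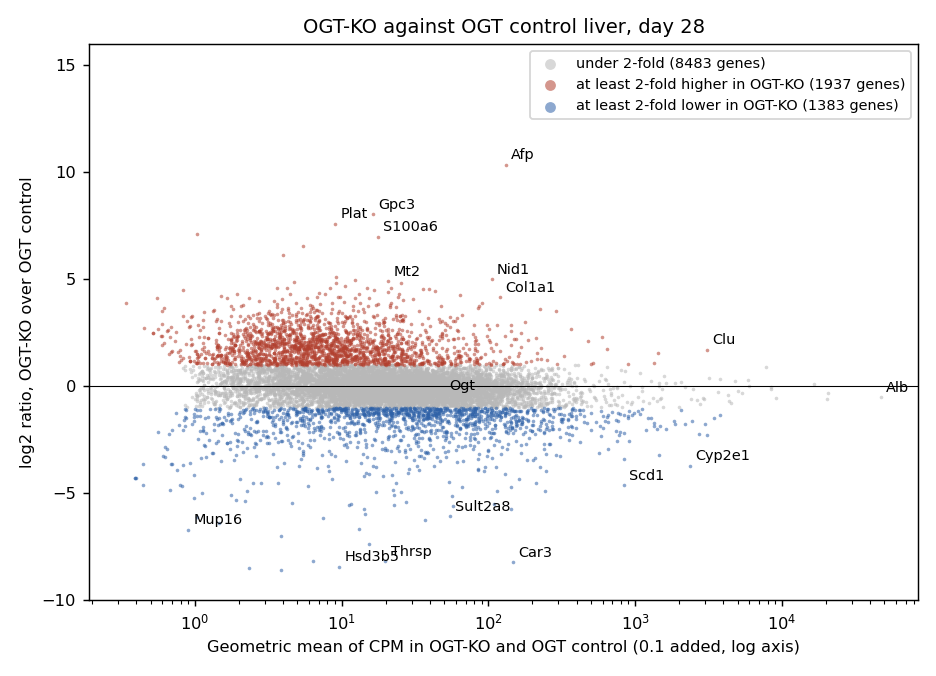
Each point is 1 of the 11803 measured genes; the horizontal axis is the geometric mean of its CPM in the pair (log axis, 0.1 added) and the vertical axis its log2 ratio of OGT-KO over OGT control. The 1937 higher genes lie mostly left of the 1383 lower ones, and Afp stands alone at the top at 10.35.

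Ogt (ENSMUSG00000034160) had 1205 counts in the OGT-KO library and 1339 in control, or 43.2 and 58.0 CPM, against 73.4 to 79.4 CPM in the OGA libraries. Its log2 ratio was -0.43 (-0.54 to -0.31), and -0.06 by library totals, so that this count did not check the knockout label. Which part of the gene is deleted is not given in the sources used here. Oga, the opposing enzyme, had 1023 and 1400 counts (-0.73). Of 13 genes of O-GlcNAc cycling and the hexosamine pathway, 3 were higher and 1 lower (median 0.53, against -0.0006 over all measured genes). The share called in this list, 30.8%, was near the 28.1% of all measured genes. The higher members lay beside the main route: Renbp, a GlcNAc epimerase, had 245 and 57 counts (1.80), Uap1l1, a relative of the last enzyme, 1277 and 314 (1.74), and Eogt, which adds O-GlcNAc to secreted proteins, 328 and 116 (1.21). Uap1, the enzyme that makes UDP-GlcNAc, was lower at 601 and 1028 counts (-1.05). Gfpt1, which commits glucose to the pathway, was at 1497 and 1088 counts (0.19).

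The highest ratio in the pair belonged to Afp, alpha-fetoprotein, with 132125 counts in OGT-KO against 82 in control (log2 10.35, 10.07 to 10.71), or 4732 and 3.55 CPM. All 4 OGA libraries held Afp at 2.30 to 3.11 CPM, so that the OGT-KO library stood apart from all 5 others. Afp belongs to the albumin gene family with Alb, Afm and the vitamin D binding protein gene Gc, all in the same stretch of mouse chromosome 5. The relatives did not share its direction. Afm, afamin, had 249 counts in OGT-KO against 2735 in control (-3.72), Gc had 38425 and 99241 (-1.64), and Alb 1102970 and 1299174 (-0.51, and -0.14 by library totals). The 250 bases before the start sites of Afp (chr5:90490464-90490713, plus strand), Afm (chr5:90518699-90518948, plus strand) and Gc (chr5:89457899-89458148, minus strand) are shown because each holds the same HNF1 motif, GTTAAT followed by any base and ATT, in capitals, while their ratios differ in direction. Sequences and positions are from RefSeq on GRCm38.p6, written 5′ to 3′ along the gene.
Afp: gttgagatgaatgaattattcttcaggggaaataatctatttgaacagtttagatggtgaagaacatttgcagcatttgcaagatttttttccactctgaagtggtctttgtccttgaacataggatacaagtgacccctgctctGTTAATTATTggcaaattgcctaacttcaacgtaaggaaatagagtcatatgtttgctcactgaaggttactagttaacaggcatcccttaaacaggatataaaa
Afm: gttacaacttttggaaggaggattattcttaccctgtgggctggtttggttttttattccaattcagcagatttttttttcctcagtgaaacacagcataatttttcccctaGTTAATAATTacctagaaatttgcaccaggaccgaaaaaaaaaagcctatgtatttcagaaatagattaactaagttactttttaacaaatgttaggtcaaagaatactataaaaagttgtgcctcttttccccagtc
Gc: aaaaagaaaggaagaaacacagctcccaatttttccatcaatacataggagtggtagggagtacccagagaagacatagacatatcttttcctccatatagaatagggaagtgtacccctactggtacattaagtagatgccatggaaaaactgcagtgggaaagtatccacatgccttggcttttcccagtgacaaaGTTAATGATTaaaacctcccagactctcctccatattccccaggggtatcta
The first base of the motif lies at -105 in Afp, -138 in Afm and -52 in Gc, counted back from the start site. HNF1 is a transcription factor of liver and kidney epithelium that binds this type of site. These promoters were picked after their ratios and matches were seen.

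Among the 9363 measured genes with a RefSeq promoter, 33 (0.352%) held this HNF1 motif on either strand of these 250 bases. The share was 0.203% of 1476 higher genes (3 genes, Afp among them) and 1.38% of 1088 lower genes (15 genes). Of 14 motifs searched, those of promoter architecture also differed between the groups. The GC box GGGCGG was in 58.9% of all promoters, 59.1% of higher and 44.5% of lower genes, and in 30.1% of those at least 4-fold lower. TATAAA was in 6.6% of all, 7.93% of higher and 10.4% of lower genes, and in 16.01% of those at least 4-fold lower. The HNF4 core CAAAGT was in 10.9%, 10.2% and 15.6%, in that order, and CCAAT in 36.7%, 32.2% and 44.2%. The AP-1 motif TGANTCA leaned to the higher genes, at 4.34% of all, 5.76% of higher and 4.87% of lower promoters, and within 100 bases of the start at 1.57%, 2.91% and 1.75%. The cell cycle motifs TTTCCCGC (E2F, 1.74%, 1.49% and 1.01%) and TTTGAA (CHR, 10.7%, 10.6% and 12.7%) did not lean to the higher genes in this window. Within 100 bases of the start CHR was in 3.001%, 3.86% and 3.58%, and E2F in 0.748%, 0.678% and 0.368%, in the same order. All motifs were read on both strands, GGGCGG and the others were counted without regard to overlap with each other, and a match is a description of letters, not of binding.

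Further promoters are printed as examples of those motifs in genes with large ratios. Cyp8b1, the sterol 12-alpha-hydroxylase of bile acid synthesis, had 359 counts in OGT-KO against 7781 in control (-4.70). Its promoter (chr9:121916306-121916555, minus strand) holds the longer HNF4 motif CAAAGTCCA at -67 and TATAAA at -31, both in capitals; CAAAGTCCA was in 0.395% of all promoters. S100a11, a calcium-binding protein, had 5356 and 187 counts (4.55), and Emp1, an epithelial membrane protein, 1138 and 37 (4.60). Their promoters (S100a11 chr3:93520246-93520495 and Emp1 chr6:135362681-135362930, both plus strand) each hold TGANTCA in 2 places, at -136 and -38 in S100a11 and at -145 and -25 in Emp1, in capitals.
Cyp8b1: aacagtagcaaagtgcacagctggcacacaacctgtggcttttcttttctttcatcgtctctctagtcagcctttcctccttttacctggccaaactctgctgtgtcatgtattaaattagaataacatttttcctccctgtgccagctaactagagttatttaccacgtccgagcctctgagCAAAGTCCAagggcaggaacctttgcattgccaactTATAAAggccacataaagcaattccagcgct
S100a11: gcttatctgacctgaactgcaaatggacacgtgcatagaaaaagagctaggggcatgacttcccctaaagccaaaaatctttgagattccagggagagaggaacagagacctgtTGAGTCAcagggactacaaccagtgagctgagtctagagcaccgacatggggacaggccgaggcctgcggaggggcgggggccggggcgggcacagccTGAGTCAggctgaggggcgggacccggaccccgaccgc
Emp1: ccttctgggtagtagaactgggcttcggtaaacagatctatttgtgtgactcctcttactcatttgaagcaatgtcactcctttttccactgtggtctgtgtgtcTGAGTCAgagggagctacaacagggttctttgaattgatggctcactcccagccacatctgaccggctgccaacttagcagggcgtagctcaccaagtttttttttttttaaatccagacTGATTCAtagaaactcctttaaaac
As above, they were chosen after their values were seen.

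Behind Afp and the fetal proteoglycan Gpc3 (7309 and 21 counts), the genes with the highest ratios included a protease and matrix proteins. Plat, tissue plasminogen activator, had 3462 counts in OGT-KO against 13 in control (7.60, 7.01 to 8.69). Nid1, nidogen, which links laminin to collagen in basement membranes, had 16621 and 427 counts (5.0, 4.87 to 5.15). In the OGA libraries these genes stayed at or under 1.15 CPM for Plat and 14.1 for Nid1, against 124 and 595 in OGT-KO. Other genes of this end were Cpe, a prohormone-processing carboxypeptidase (1438 and 11 counts, 6.54), Mlph, an adaptor for organelle transport on actin (1472 and 34, 5.09), Slc25a24, a calcium-regulated carrier of the mitochondrial membrane (1895 and 49, 4.95), and Spon1, a matrix protein (707 and 18, 4.89). Cyp21a1, the steroid 21-hydroxylase known from the adrenal gland, had 3795 and 108 counts (4.84), with 2.94 to 7.36 CPM in the OGA libraries and 136 in OGT-KO; a pseudogene copy makes this count uncertain. Pla2g7, a lipoprotein-associated phospholipase of macrophages (1351 and 38, 4.81), and Anxa3, an annexin (3015 and 100, 4.61), followed. Sema3e, a secreted guidance signal, had 296 counts and 0 in control, at least 81.6-fold higher, with 4 to 54 counts in the OGA libraries.

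Of the 20 lowest ratios 6 belonged to Mup genes, which encode major urinary proteins and whose near-identical copies make single counts uncertain. The lowest was that of Mup15, with 3 counts in OGT-KO against 1664 in control (-8.60, -11.67 to -7.84). Among the others were enzymes and carriers of the adult liver. Car3, a carbonic anhydrase, had 236 counts in OGT-KO against 58692 in control (-8.22, -8.42 to -8.05), and Hsd3b5, a steroid reductase of male liver, 12 and 4073 (-8.44). Thrsp, which acts in fat synthesis, had 30 and 7786 counts (-8.19). Sult2a8, a bile acid sulfotransferase, had 183 and 10357 counts (-6.08), and Dio1, which activates thyroid hormone, 48 and 2614 (-5.98). Rdh16f2, of the retinol dehydrogenase family, had 43 and 1768 (-5.57). Moxd1, a monooxygenase-like protein, had 2 and 287 counts (-6.38, -10.49 to -5.57), but its level in the OGA libraries ran from 0.222 to 9.21 CPM. Car3, Hsd3b5, Thrsp, Sult2a8, Dio1 and Rdh16f2 were at 73.5 CPM or more in every OGA library and at 8.45 CPM or less in OGT-KO. The plot of 14 genes in all libraries shows both patterns.

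**Figure D2:**
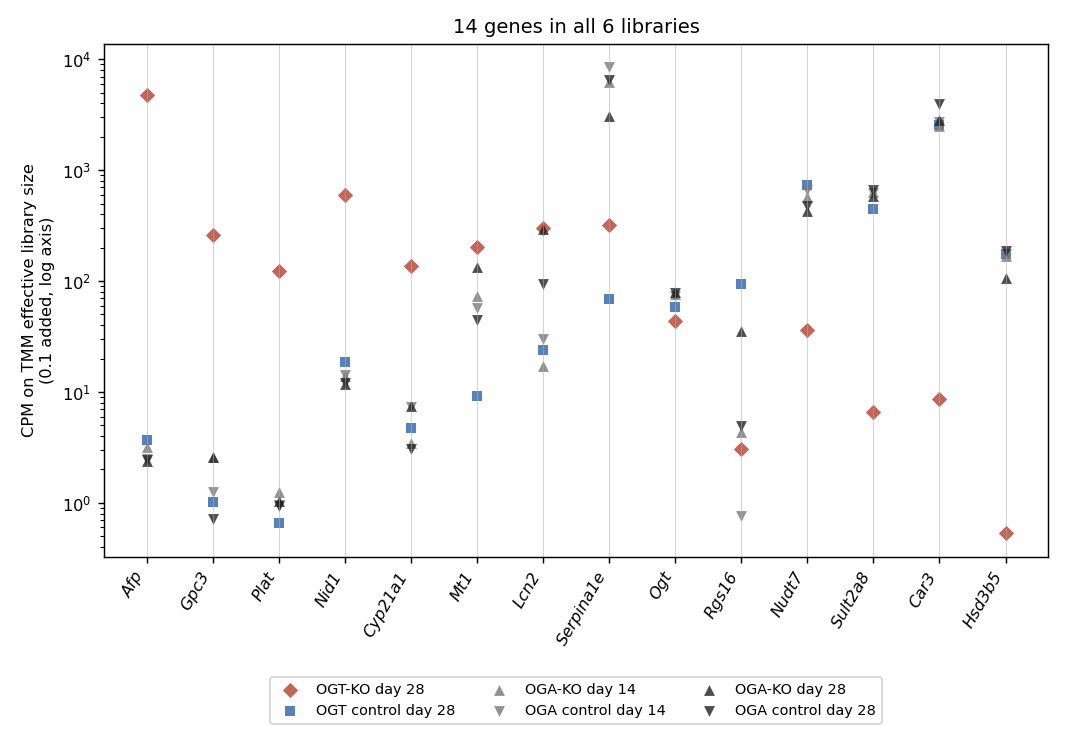
CPM (log axis, 0.1 added) of 14 genes in the 6 libraries, 1 marker per library and no error bars because each group has 1 library. OGT-KO (red) lies above all others for Afp to Cyp21a1 and below all others for Nudt7 to Hsd3b5, while Mt1, Lcn2, Serpina1e and Rgs16 differ widely among the other libraries too.

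Some called genes were not at least 2-fold beyond all OGA libraries in the same direction. Mt1 and Mt2, the zinc-binding metallothioneins, had 5656 and 3150 counts in OGT-KO and 210 and 85 in control (4.46 and 4.91). In CPM, Mt1 was at 203 in OGT-KO, 9.10 in its control and 44.5 to 133 in the OGA libraries. Lcn2, an iron-siderophore binding protein of inflammation, was at 303 and 23.9 CPM (3.66), while the OGA libraries ran from 16.9 to 293. Serpina1e, an antitrypsin form, was called higher at 9011 and 1590 counts (2.23), yet its 323 CPM in OGT-KO lay below the 3076 to 8478 CPM of the OGA libraries. Its copies are near-identical, so its count is uncertain. Among lower genes, Rgs16 (83 and 2183 counts, -4.96) and the clock output gene Dbp (243 and 1133, -2.49) had OGA ranges of 0.653 to 35.4 and 6.37 to 156 CPM around their 2.97 and 8.70 CPM in OGT-KO. Aldh1a1, a retinal dehydrogenase, was at 1041 CPM in OGT-KO and 3265 in control (-1.65), with 1026 to 1201 in the OGA libraries. Rgs16 and Dbp were singled out after their values were seen.

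The direction of the difference followed how abundant a gene was in the OGA libraries, which enter the ratio only through the shared scaling. Of 131 genes with a mean of 1000 CPM or more in those libraries, 57.3% were lower in OGT-KO and 2.29% higher (median log2 -1.28). Of 312 genes at 300 to 1000 CPM, 57.1% were lower and 1.28% higher (median -1.19), and of 1024 genes at 100 to 300 CPM, 27.2% and 2.15% (median -0.49). At 10 to 30 CPM the shares nearly met, with 7.197% lower and 8.69% higher of 3418 genes. Of 1375 genes at 1 to 3 CPM, 53.7% were higher and 4.87% lower (median 1.12). In the class below 1 CPM, 74.6% of 236 genes were higher, but a gene entered that class only by reaching 1 CPM in an OGT library, so that share is partly fixed by the filter. By library totals the medians of the OGT pair moved up, to 1.49 at 1 to 3 CPM and -0.91 at 1000 CPM or more. The trend was not particular to the knockout. Ratios of OGT control over OGA control at 28 days had the same order with smaller medians, 0.22 at 1 to 3 CPM and -0.39 at 1000 CPM or more. There the OGA control also enters the mean that sets the classes.

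**Figure D3:**
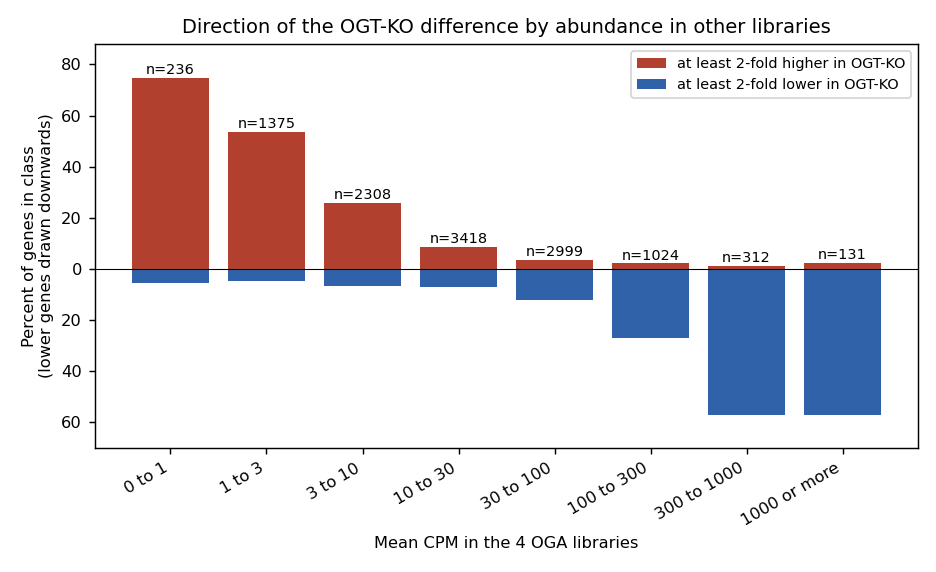
Percent of genes at least 2-fold higher (red, upwards) and lower (blue, downwards) in OGT-KO, in 8 classes of mean CPM in the 4 OGA libraries; n is the number of genes in the class. The share higher goes from 74.6% in the rarest class to 2.29% in the most abundant, and the share lower from 5.51% to 57.3%.

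The same shift showed in how the counts were spread over genes. The 100 most abundant genes held 38.2% of counts in OGT-KO, 42.1% in control and 44.4% to 44.9% in the OGA libraries. It took 363 genes to hold 50% of the counts in OGT-KO, 203 in control and 152 to 160 in the OGA libraries. The top 10 genes did not show this order, at 19.01% and 17.97% in the pair. Among abundant genes that were not lower, Clu, clusterin, had 155796 and 39648 counts (1.70), Ehhadh, a peroxisomal fatty acid oxidation enzyme, 36805 and 6233 (2.29), Abhd2, a lipase, 25812 and 3387 (2.65), and Igfbp1, which binds insulin-like growth factors, 27099 and 1971 (3.51). The fibrinogen chains Fga (0.25) and Fgb (0.27), transferrin (Trf, 0.12), haemopexin (Hpx, 0.33) and fibronectin (Fn1, 0.38) were within 2-fold.

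Pairs of related enzymes or other proteins, 1 listed as the adult liver form and 1 as another form, gave a comparison in which scaling cancels. Of 22 pairs listed, 14 had rows for both members. The other form had the larger ratio in 12 of them and led by at least 1 log2 unit in 10, with a median difference of 2.63, against -0.05 for the same pairs in OGA-KO at 28 days. In 5 pairs the adult form was lower and the other form higher by 2-fold. Pyruvate kinase was among them. Pklr, the liver form, had 660 counts in OGT-KO against 8451 in control (-3.95), and Pkm, the form of most other tissues, 7927 and 335 (4.28). Glucose transporters Slc2a2 and Slc2a1 were at -3.40 and 2.06, glycogen phosphorylases Pygl and Pygb at -2.06 and 3.30, and stearoyl-CoA desaturases Scd1 and Scd2 at -4.63 and 2.74. In the fatty acid binding proteins, Fabp1 had 10021 and 35754 counts (-2.11) and Fabp5 768 and 58 (3.41), but Fabp5 at 27.5 CPM was close to the 16.9 to 24.6 CPM of the OGA libraries. The exceptions to the order were acetyl-CoA carboxylase, where Acacb (-2.16) was lower than Acaca (-1.07), and Gstp1 (-1.34) against Gstm1 (-0.98). Not every pair was clearly adult against other. In control Acacb had 2566 counts against 2377 for Acaca, and Akr1b3, listed as adult, was itself higher (1.51). Because whole liver was sequenced, fewer cells of a type and less RNA per cell cannot be told apart here or in the groups that follow.

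**Figure D4:**
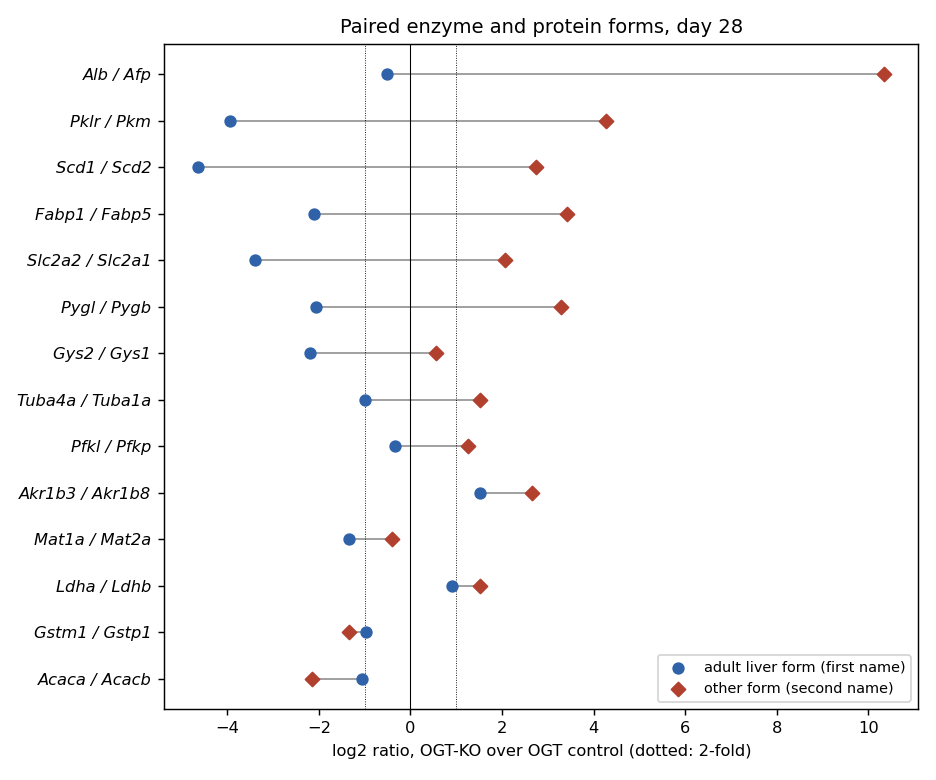
Log2 ratios of OGT-KO over OGT control for the 14 pairs with rows. The form listed as adult liver is a blue circle and the other form a red diamond, and dotted lines mark 2-fold. In 12 pairs the diamond lies to the right of the circle.

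Detoxifying enzyme families held more lower than higher genes, to unequal degrees. Of 14 carboxylesterases, which cleave ester drugs and lipids, 12 were lower and none higher (median -3.12), led by Ces3b (34 and 3050 counts, -6.67), Ces3a (451 and 16934, -5.50) and Ces1d (126 and 3282, -4.95). Of 16 UDP-glucuronosyltransferases, which attach glucuronic acid, 14 were lower (median -2.49), with Ugt3a1 at 17 and 691 counts (-5.45) and Ugt2b1 at 591 and 14435 (-4.88); Ugt1a7c alone was higher (124 and 25, 1.96). Of 13 aldo-keto reductases 8 were lower and 3 higher (median -1.65). The Akr1c genes of steroid metabolism were lower, from Akr1c14 (1713 and 15485, -3.45) to Akr1c6 (1296 and 7719, -2.85), whereas Akr1b3, Akr1b8 and Akr1b10, aldose reductase relatives, were higher (1.51, 2.66 and 2.57). Of 22 glutathione transferases 9 were lower and 3 higher (median -0.82), with Gsta3 at 4765 and 24244 counts (-2.62) and Gsta1 at 722 and 154 (1.94). Sulfotransferases were lower in 4 of 7 and higher in none, and aldehyde dehydrogenases lower in 7 and higher in 2 of 15. Near-identical copies in these families make single members uncertain.

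Several of these genes are neighbours. On RefSeq gene order, 14 runs of 5 or more adjacent measured genes were called the same way, 10 of them lower. The longest held 17 Mup genes on chromosome 4, then 8 Ugt2 genes on chromosome 5 and 7 Akr1c and Akr1e1 genes on chromosome 13. These are families of duplicated genes whose reads can be shared. Runs that held genes of unlike families were shorter. On chromosome 6, Art4, Mgp, Arhgdib, Pde6h, Rerg and Eps8 were all higher, by 1.86 to 2.43, and on chromosome 7 Ceacam1, Ceacam2, Dmac2, B3gnt8 and Bckdha were all lower, by -2.06 to -1.63. On chromosome 1, Sdhc, Pcp4l1, Nr1i3 (the drug sensor CAR), Tomm40l and Apoa2 were lower. The Oas genes on chromosome 5, interferon-induced sensors of RNA, made a run of 5 higher genes. They are also duplicated relatives, as are Ceacam1 and Ceacam2, so reads can be shared there too.

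Amino acid and one-carbon enzymes were lower as groups. Of 28 genes of tryptophan, tyrosine, NAD and haem metabolism 16 were lower and 2 higher (median -1.37). Kynu, kynureninase, had 732 and 4277 counts (-2.82), and Tdo2, the first enzyme of tryptophan breakdown, 10430 and 51601 (-2.58). Tat, tyrosine aminotransferase, did not follow, at 48035 and 35654 (0.16), and Hmox1, which breaks down haem, was higher (4242 and 587, 2.58). Of 36 genes of methionine, choline and one-carbon metabolism 18 were lower and 5 higher (median -0.93). Gamt, of creatine synthesis, had 261 and 2365 counts (-3.44), Bhmt, which remethylates homocysteine, 35132 and 136260 (-2.23), and Shmt1 and Shmt2, which move carbon from serine, were at -1.95 and -1.67. Higher members included the mitochondrial folate enzyme Mthfd1l (315 and 42, 2.58). Psat1, of serine synthesis, had 583 and 48 counts (3.28) and stayed at or under 0.703 CPM in the OGA libraries.

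Peroxisomal and mitochondrial genes were lower by smaller ratios. Of 35 peroxisome genes 18 were lower and 2 higher (median -1.04). Nudt7, a coenzyme A hydrolase of the liver peroxisome, had 1000 and 16888 counts (-4.35), Pxmp2, a membrane channel, 270 and 1754 (-2.96), and Cat, catalase, 28241 and 79172 (-1.76), while Abcd2, a fatty acid importer, was higher (540 and 78, 2.49). Of 26 citric acid cycle genes 10 were lower, none higher, and 25 lay below 0 (median -0.94), with Mdh1 at 1776 and 8629 counts (-2.55) and Suclg1 at -1.54. Among 37 nuclear genes of respiratory complex I 10 were lower, none higher, and 36 lay below 0 (median -0.84). Among 17 ATP synthase genes 5 were lower, none higher, and 17 lay below 0 (median -0.89). The shares called in these groups, 27.0% and 29.4%, were near the 28.1% of all measured genes. The 13 genes of the mitochondrial genome did not share these lower medians, with a median of -0.15 (0.22 by library totals) and no member past 2-fold. Within them mt-Nd1 stood apart, with 301540 counts in OGT-KO and 131767 in control (0.92), against -0.31 to 0.17 for the other 12. Fatty acid oxidation was mixed: 10 of 37 were lower and 6 higher (median -0.68), with Slc27a5, a bile acid and fatty acid ligase, at -2.23, and Acot2, a mitochondrial thioesterase (1423 and 122, 3.25), and Pdk4, which spares glucose (1196 and 266, 1.89), higher beside Ehhadh.

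Genes of protein synthesis and turnover stayed near the middle. None of 81 cytosolic ribosomal protein genes passed 2-fold (median 0.25), nor did more than 1 of 57 translation factors (median -0.0014) or 1 of 37 proteasome genes (median -0.33, which was 0.04 by library totals). Of 22 genes of the unfolded protein response, Herpud1 alone was past 2-fold (3738 and 7960 counts, -1.36), and the chaperone Hspa5 had 25656 and 21205 (0.00). Of 44 histone and DNA modifiers 3 were higher and 2 lower. They were Hdac7 (1.67), Dnmt1, which maintains DNA methylation (1.22), Hcfc1, a chromatin adaptor that OGT cleaves (5170 and 2009 counts, 1.09), Hdac11 (-2.12) and the mitochondrial deacetylase Sirt3 (-1.91). By library totals the medians of the translation factors and of the unfolded protein response also turned positive (0.37 and 0.21).

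**Figure D5:**
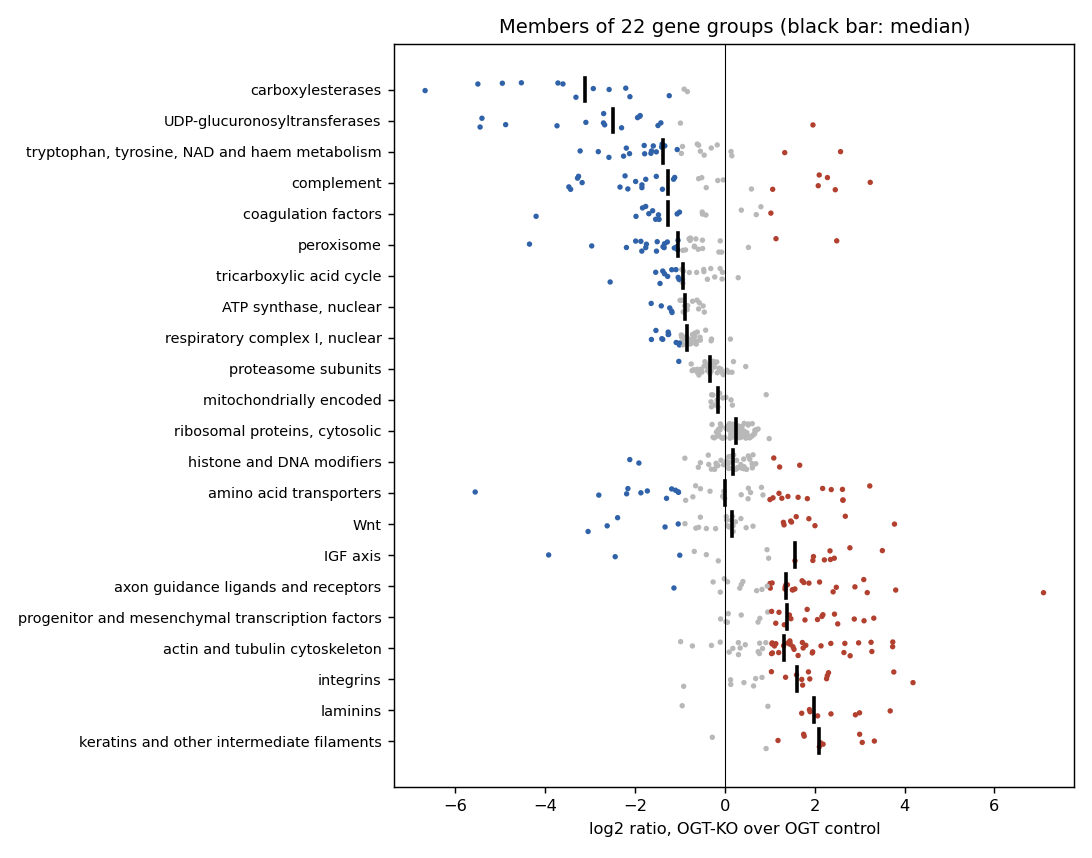
Log2 ratios of OGT-KO over OGT control for the measured members of 22 gene groups, 1 point per gene, red when at least 2-fold higher and blue when at least 2-fold lower, with the group median as a black bar. Medians go from -3.12 for carboxylesterases to 2.10 for keratins and other intermediate filaments, with ribosomal proteins tightly grouped at 0.25.

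Plasma proteins made by the liver were lower unequally. Of 28 complement genes 16 were lower and 6 higher (median -1.27). The terminal components that form the membrane pore were low together, with C8b at 560 and 5159 counts (-3.47), C6 at 873 and 7025 (-3.28), C9 at 2759 and 21830 (-3.26) and C8a at 800 and 5998 (-3.18), as was the inhibitor C4bp (1551 and 13873, -3.43). All 6 higher members are known from macrophages or other blood-derived cells: C1qa, C1qb and C1qc (2.10, 2.46 and 2.28), the receptor C3ar1 (964 and 83, 3.24), properdin Cfp (2.08) and the ficolin Fcna (1.06). Of 18 coagulation genes 11 were lower and 1 higher (median -1.26), led by the kallikrein gene Klkb1 (122 and 1888, -4.20) and protein C (Proc, 3454 and 11258, -1.98). Of 26 acute phase genes 9 were lower and 3 higher (median -0.64), with Crp, C-reactive protein, at 449 and 3727 counts (-3.32) and serum amyloid Saa1 at 239 and 1626 (-3.03), opposite to Lcn2. Among apolipoproteins, Apoa2 had 13356 and 102678 counts (-3.22), whereas Apoa4 had 68648 and 19343 (1.55) and Apoa1 128955 and 124998 (-0.23, and 0.14 by library totals).

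Solute carriers, which move small molecules across membranes, went both ways: of 227 measured, 47 were lower and 38 higher (median -0.12, and 0.25 by library totals). The lower carriers included the bile acid transporter Slc10a1 at 853 and 9671 counts (-3.77), the organic anion carrier Slc22a7 at 19 and 405 (-4.54), the glutamate transporter Slc1a2 at 90 and 3589 (-5.56) and the manganese exporter Slc30a10 at 127 and 1474 (-3.79). Amino acid transporters split, 11 lower and 13 higher of 39 (median -0.0049). Slc38a3, which carries glutamine in hepatocytes, had 10450 and 38593 counts (-2.16), while the glutamine carriers Slc1a5 (434 and 78, 2.18) and Slc38a1 (271 and 35, 2.62), the creatine transporter Slc6a8 (912 and 79, 3.23) and the neutral amino acid carriers Slc7a8 (1275 and 169, 2.63) and Slc43a2 (2585 and 344, 2.63) were higher. Of 39 ABC transporters 12 were higher and 5 lower, with the efflux pumps Abcc4 (2107 and 208, 3.06) and Abcc1 (371 and 66, 2.19) against Abcc6 (916 and 3924, -2.37).

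Growth signal groups held genes in both directions. In the IGF axis 9 of 17 genes were higher and 3 lower (median 1.56). The growth hormone receptor Ghr had 2281 and 10254 counts (-2.44), and Igfals, which keeps IGF in the blood, 238 and 3009 (-3.92), while the receptor Igf1r had 305 and 48 (2.35) and the RNA-binding protein Igf2bp2 134 and 19 (2.44). Of 16 EGF family genes 6 were higher and 3 lower. Egfr had 3564 and 12121 counts (-2.04) and Erbb4 36 and 157 (-2.33), and Erbb2 had 187 and 24 (2.60), with the ligands Tgfa (2984 and 797, 1.63) and Btc (361 and 95, 1.63). In the FGF, PDGF and VEGF group 10 of 28 were higher and 3 lower, with Pdgfra (1319 and 97, 3.47), Pdgfrb (2011 and 283, 2.55) and the ligand Hgf (765 and 87, 2.84) against Fgf1 (-2.04) and Fgfr4 (-1.17). Wnt genes were divided, 9 higher and 5 lower of 32 (median 0.16). Among targets and feedback genes, Notum (51 and 361 counts, -3.04), Sp5 (21 and 116, -2.62) and Lgr5 (164 and 344, -1.33) were lower, whereas Axin2 (0.17), Nkd1 (0.18), Rnf43 (0.06), Tcf7 (0.04) and Znrf3 (-0.55) were within 2-fold. Of other members, the secretion factor Wls (578 and 73, 2.68), Dkk3 (624 and 36, 3.78) and the ligands Wnt4 (1.87) and Wnt5a (2.01) were higher. Notch genes had 8 higher and 1 lower of 18 (median 0.95), with the ligand Jag1 at 767 and 107 (2.55) and Hes6 at 288 and 1173 (-2.29). The Hedgehog list had 5 higher and 1 lower of 9, but Smo, the signal transducer (416 and 68, 2.31), and Gas1 (131 and 21, 2.27) lay in the same range as, or below, the OGA libraries.

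In the groups of cell shape, adhesion and migration given here, higher genes outnumbered lower ones except among cell junction genes. Of 45 actin and tubulin cytoskeleton genes 30 were higher and none lower (median 1.31), including Tagln2 (3986 and 417 counts, 2.98), Tmsb10 (4750 and 410, 3.25), ezrin (Ezr, 2169 and 184, 3.27) and Flna (7143 and 926, 2.67). Of 11 keratins and other intermediate filaments 9 were higher (median 2.10). Both hepatocyte keratins were among them, Krt8 at 32967 and 8085 counts (1.75) and Krt18 at 27532 and 5296 (2.10), beside the bile duct keratins Krt19 (383 and 38, 3.00) and Krt7 (299 and 23, 3.33) and vimentin (Vim, 3915 and 387, 3.06). Laminins, the other scaffold of basement membranes, were higher in 8 of 10 (median 1.98, Lama5 2119 and 135, 3.68), integrins in 12 of 19 (median 1.59, Itga6 1118 and 49, 4.19, and Itga3 4863 and 295, 3.76), and annexins in 7 of 10 (median 1.43, Anxa2 13878 and 1445, 2.99). Of 33 metalloproteinases and inhibitors 23 were higher and 2 lower (median 1.69), and of 24 collagens 19 and 2 (median 2.54). Col18a1, the collagen that yields endostatin and is abundant in hepatocytes, was the most abundant collagen of the control and was lower (12166 and 30662, -1.61). Guidance genes, known for steering axons and vessels, were higher in 21 of 32 (median 1.35), with Sema3c (214 and 11, 3.80), Unc5b (1639 and 149, 3.17) and Robo2 (532 and 50, 3.09) behind Sema3e. Cell junction genes were split, 5 higher and 5 lower of 32, and the share called, 31.25%, was near the 28.1% of all measured genes. The gap junction gene of hepatocytes, Gjb1, had 4942 and 12817 counts (-1.65), and Gja1, that of many other cells, 372 and 95 (1.68), with Epcam higher (634 and 58, 3.14).

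Transcription factors of progenitor and mesenchymal cells were higher in 16 of 24 and lower in none (median 1.38). Foxm1, a driver of mitotic genes, had 501 and 40 counts (3.31), Id1 1549 and 148 (3.10), the epithelial factor Ehf 388 and 42 (2.88), Sox4 714 and 102 (2.51), Tead2 200 and 29 (2.44), and the stellate cell factor Hand2 651 and 119 (2.16). Of 14 AP-1 and immediate early factors 7 were higher (median 0.70), but not the best known: Jun had 1555 and 1046 counts (0.30), Egr1 1200 and 1026 (-0.05) and Myc 1248 and 889 (0.21), beside Klf4 (374 and 31, 3.24), Fosl2 (930 and 211, 1.86) and Klf6 (2190 and 522, 1.79). Of 14 imprinted genes with rows 8 were higher and none lower (median 1.17), with Peg10 at 235 and 8 counts (4.32) and Peg3 at 1139 and 112 (3.05).

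Immune and stress genes differed by class. Of 28 chemokines, cytokines and NF-kB targets 16 were higher and none lower (median 1.29), with Ccl6 (1852 and 174 counts, 3.12), Vcam1 (3003 and 347, 2.83), the oncostatin receptor Osmr (552 and 49, 3.17) and Ccl2 (432 and 53, 2.71). Interferon genes were mixed, 5 higher and 4 lower of 29, with Oasl2 (918 and 207, 1.87) against Cxcl9 (61 and 351, -2.76). The share called in the interferon list, 31.0%, was near the 28.1% of all measured genes. Antigen presentation genes had 2 higher and 3 lower of 18 (median -0.36, and 0.01 by library totals), and the share called, 27.8%, was near the 28.1% of all measured genes. The class I genes H2-K1 (14082 and 28421, -1.29) and B2m (21609 and 37146, -1.06) were lower while the cathepsin Ctss was higher (6089 and 680, 2.88). Of 12 necroptosis and pyroptosis genes 4 were higher and 1 lower (41.7% called), the necroptosis pair Ripk3 (98 and 20, 1.93) and Mlkl (475 and 166, 1.23) among the higher. Of 26 apoptosis regulators 8 were higher and none lower, and the share called, 30.8%, was near the 28.1% of all measured genes. These 8 included the survival genes Bcl2 (146 and 22, 2.36) and Birc5 (329 and 42, 2.64) and the receptor Tnfrsf12a (2296 and 185, 3.35). NRF2 targets and glutathione genes had 6 higher and 7 lower of 32, with Gpx3, a secreted peroxidase (4869 and 168, 4.57), and G6pdx, which supplies NADPH (1301 and 176, 2.60), against superoxide dismutases Sod1 (7572 and 15216, -1.28) and Sod2 (-1.35). In the lysosome list 6 of 36 were higher and 1 lower, so that the share called (19.4%) was under the 28.1% of all measured genes. The higher ones were led by the tetraspanin Cd63 (2867 and 129, 4.18) and legumain (Lgmn, 8238 and 1318, 2.37). Among lipid droplet and lipase genes, hepatic lipase Lipc had 465 and 2207 counts (-2.52) and lipoprotein lipase Lpl, known from macrophages and fat, 8823 and 540 (3.75), with the droplet protein Cidec at 2094 and 203 (3.08).

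Marker genes of several cell types moved with these groups, and their part in the results was not tested. The 8 hepatocyte markers were all present, with a summed 69744 CPM in OGT-KO, 99210 in control and 107858 to 117609 in the OGA libraries, and 2 of them were lower. All 7 stellate cell markers were higher, summing to 1171 CPM against 195 (119.7 to 162 in the OGA libraries), as were 7 of 7 smooth muscle and portal fibroblast markers with rows (185 against 33.6). Of 7 macrophage markers 6 were higher (840.4 against 228) and of 5 cholangiocyte markers 4 (386 against 62.5). The 3 neutrophil markers with rows were higher at low levels (19.02 against 2.77), and the 6 of sinusoidal endothelium had 1 higher and none lower (129.5 against 148). The T and NK cell markers were represented by Cd4 alone at 1.33 CPM and the B and plasma cell markers by Jchain at 0.322 CPM. Of 6 pancreas markers 5 were at 0 in OGT-KO, as was the adipocyte marker Cfd. The 2 erythroid markers with rows summed to 18.2 CPM in OGT-KO and 135 in control.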

How the data were processed

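Messenger RNA libraries of whole liver were compared as 1 pooled library a side. The authors deposited a table of raw counts per Ensembl gene, 1 column per library, and a table of CPM (the deposited CPM were used only to check each column's divisor). STAR, Subread, edgeR and the genome build mm39 are named per the submitters' processing notes, with no version or setting. RefSeq and GENCODE tables on GRCm38 gave symbols to 12019 of 12027 identifiers, gene order and promoters; the first listed promoter of a gene was used, and it may not be the start used in liver. The build differs from that of the files, so no other positions are given. The series holds no OGT library at day 14.

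Ratios are log2 CPM on TMM effective library sizes over the 6 libraries (edgeR 4.0.16, R 4.3.3), with a prior count of 2; the TMM factor was 1.37 for OGT-KO and 1.06 for its control. Intervals are exact 95% Clopper-Pearson intervals of the conditional binomial share, without the prior count. Reads were not counted by molecular identifiers, so these intervals cover counting error only. A library at 0 was set to a floor of 3 counts per library (0.107 CPM in OGT-KO, 0.130 in control), and such folds are lower bounds. The 2-fold rule was run on simulated counts in which few genes were changed, as many up as down. That setting differs from this pair, so it does not show how the scaling performs here. Alternatives were other scalings, filters and prior counts, and edgeR and DESeq2 1.42.0 fits over all 6 libraries, which take the spread of the OGA libraries for the lone OGT ones.

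The comparison, the 40 gene lists, the 35 families and the named-gene rule were chosen with earlier results of these data known. Patterns of some families were tightened, and a histone family dropped, after ratios had been seen. Some genes are not reported here, and the isoenzyme pairs that hold them were then left out of the list. Lists counted for a direction only with at least 1 CPM in either library, so a rare member enters through the library where it is high. Named genes are Ogt, Oga, the up to 6 largest ratios of each list and its members at 100 CPM, isoenzyme pairs, the 20 highest and 20 lowest ratios at 10 CPM, the 15 largest gains and losses, genes next to the 2-fold bound, genes at 0 in 1 library and runs of neighbours; Afm, Akr1b10, Axin2, Ccl2, Cfp, Egr1, Fcna, Fgfr4, Gfpt1, Hand2, Jun, Lgr5, Myc, Nkd1, Rnf43, Slc1a5, Tcf7, Ugt1a7c, Wnt4 and Znrf3 were named after their values were seen.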

Additional observations from a re-analysis of the deposited data

Results flagged for a closer look

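Counts outside the rows of the count table drew attention because they form a signal in data no comparison used. The divisor behind the deposited CPM exceeded the column total by 158367 counts in OGT-KO (0.769%) and by 22723 in OGT control (0.104%), and by 0 in the OGA libraries. They lie outside the rows and are not analysed here, and their cause was not tested.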

How the results depend on the processing

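By library totals 832 genes were lower instead of 1383, and most ratios moved up by about 0.37. Some genes with few counts moved less, such as Mup15 from -8.60 to -8.41. With this scaling 14 of 75 group medians changed sign. A move of about 0.37 cannot change the sign of a median beyond 0.5 on the log2 scale. The edgeR fit called 6332 genes, 3134 higher and 3198 lower, with no minimum fold, and DESeq2 called 1207 higher; 3207 and 2186 of the 3320 genes called here were called the same way by these fits. Their spread comes from the OGA libraries, so they are no replicate check. The other scalings, filters and prior counts kept the counts of called genes within 1.5 times. Motif shares can only fall or stay equal in the shorter promoter window, which lies inside the longer one. In both windows and at 4-fold, 10 of 14 motifs were more frequent among lower genes than among all. No paired analysis was possible because each group has 1 library, and leaving out either OGT library leaves no comparison. Depth limits rare genes: levels below 0.107 CPM in OGT-KO or 0.130 in control rest on fewer than 3 counts. Pools of 3 mice hide differences between mice.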
